A study of Mus musculus with 6 samples.

Results

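The nuclear genes of the mitochondrial respiratory chain and of ATP synthase were followed in mouse cumulus cells, the somatic cells around the oocyte, before and after the ovulatory stimulus. Members were taken by symbol from the annotation of the array: the Nduf genes of series a, b, c, s and v, Sdha to Sdhd, all Uqcr genes, Cox4 to Cox8 and all Atp5 genes. This gave 80 genes of 18194 tested, of which 34 fall to complex I, 4 to complex II, 8 to complex III, 17 to complex IV and 17 to ATP synthase (complex V). Ndufa4 was counted with complex I by its symbol, although the protein is now placed in complex IV. All 80 had a value in each sample, since no gene was filtered out, and 2 of them (Cox7b2 and Cox8b) had a mean log2 level under 6.08, the limit used for dim genes.

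All mice were wild type and received 5 IU of equine chorionic gonadotropin (eCG) at 21 days of age to stimulate follicle growth. After 46 h, 3 samples were taken without human chorionic gonadotropin (hCG), the hormone that sets off ovulation (group hCG-0h). The other 3 were taken after 6 h under 5 IU of hCG (group hCG-6h). By the collection protocol, the cumulus cells of 50 cumulus-oocyte complexes were pooled for each sample, in medium with 5 µM milrinone, a phosphodiesterase inhibitor that holds oocytes in arrest. The sample labels and the collection protocol speak of cumulus cells, but the extraction protocol names whole complexes as the source of the RNA, so whether oocytes were included is not settled by the labels. The labels give the mice as 23 days old at collection. The labels do not tell whether samples came from separate animals, so p-values measure only the spread between these samples, which may be technical. No sample stood for the extra 6 h without hCG, so hormone and time cannot be told apart. The titles of hCG-6h samples 2 and 3 give 6 h, whereas their descriptions give 7 h and 8 h. In bulk RNA of this kind, fewer cells of a type and less RNA per cell cannot be told apart.

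Across all 18194 genes 1969 were higher and 1905 lower at hCG-6h (10.8% and 10.5%; limma, Benjamini-Hochberg adjusted p under 0.05). Granulosa markers were present: Inha, the inhibin alpha subunit, lay between 13.36 and 13.49 on the log2 scale in all 6 samples, and 6 of 9 measured markers of this list fell. Of 14 oocyte markers 1 rose (Ooep, from 6.53 to 8.47 in mean log2 level), and in all 8 had a change above 0 and 6 below. Dppa3 was wholly higher at hCG-6h (means 6.67 and 7.63) but did not pass (adjusted p = 0.0851, limma). Zp1, Zp2, Zp3, Bmp15 and Gdf9 lay between 3.56 and 6.31. Of these Gdf9 changed by 0.46 and did not pass (adjusted p = 0.123, limma). The log2 levels of those 14 genes summed to 75.15 to 77.65 at hCG-0h and 78.94 to 80.55 at hCG-6h. Sums were also higher at hCG-6h, with no overlap, for 5 endothelial markers (24.37 to 26.22 against 27.05 to 28.52) and 6 leukocyte markers (32.2 to 32.7 against 33.97 to 35.03), none of which passed the test. The endothelial markers did not move as 1: Cdh5 changed by 1.63 (adjusted p = 0.0531, limma), Kdr by 0.67 and Tek by 0.21, but Pecam1 by -0.20 and Emcn by -0.10. All 6 leukocyte markers were above 0, Cd3e the most (0.93). The sum of 3 red blood cell genes was lower (24.34 to 24.52 against 22.96 to 23.27). Of these Alas2 fell (log2 change -1.35, adjusted p = 0.00125, limma), while Hba-a2 and Hba-a1 did not pass (-0.20 and 0.25). The sums of 3 theca genes overlapped (17.98 to 18.62 and 18.23 to 18.93). What part these cells had in the results below was not tested.

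The respiratory chain lies in the inner mitochondrial membrane. Complex I takes electrons from NADH and complex II from succinate, complex III hands them to cytochrome c, and complex IV passes them to oxygen. Complexes I, III and IV pump protons, and ATP synthase lets the protons flow back to make ATP. Most subunits are encoded in the nucleus, and the promoters of many of these genes are known to be bound by the factors NRF1, GABPA (an ETS factor) and YY1. Cumulus cells are known for taking up glucose and handing pyruvate to the oocyte, which depends on oxidative phosphorylation.

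Promoters of members that fell are shown here so that the letters known from nuclear genes of the respiratory chain can be read in them where they occur. RefSeq promoters (build GRCm38.p6, 250 bases before to 50 after the start) were found for 66 of the 80 members and 14 of the 15 that fell. That of Cox4i2, the member with the largest fall, was not found. Both strands were searched for CCGGAAG (the ETS core of GABPA), GCATGCGC (NRF1) and AAGATGGC (YY1). A pair of GCGC runs with any 2 bases between, another form of the NRF1 site that can overlap GCATGCGC, was added after the promoters had been read. Each stretch runs from 150 bases before to 30 after the start, and capitals mark the matches. Ndufa10 and Sdha are the members of the table with the largest falls, and the other 3 were chosen after seeing their matches. Cox7a2l and Ndufc2, the next by size, held none of these letters there.
Ndufa10, chr1:92473729-92473908, minus strand: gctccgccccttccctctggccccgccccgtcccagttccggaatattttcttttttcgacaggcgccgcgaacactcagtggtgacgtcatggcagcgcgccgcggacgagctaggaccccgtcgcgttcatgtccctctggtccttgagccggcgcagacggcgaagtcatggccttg
Sdha, chr13:74350211-74350390, minus strand: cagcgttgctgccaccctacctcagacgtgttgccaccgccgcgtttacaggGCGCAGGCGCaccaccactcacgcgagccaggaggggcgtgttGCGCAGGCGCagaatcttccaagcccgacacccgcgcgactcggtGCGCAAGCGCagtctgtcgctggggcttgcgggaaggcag
Sdhb, chr4:140961121-140961300, plus strand: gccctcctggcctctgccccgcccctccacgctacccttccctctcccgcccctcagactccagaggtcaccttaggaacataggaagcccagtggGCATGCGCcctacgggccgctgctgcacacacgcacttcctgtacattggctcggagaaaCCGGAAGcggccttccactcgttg
Ndufs3, chr2:90904692-90904871, minus strand: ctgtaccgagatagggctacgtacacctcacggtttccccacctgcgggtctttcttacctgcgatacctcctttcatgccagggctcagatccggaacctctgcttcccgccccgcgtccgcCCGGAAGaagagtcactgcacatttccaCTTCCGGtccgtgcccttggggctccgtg
Atp5g2, chr15:102671018-102671197, minus strand: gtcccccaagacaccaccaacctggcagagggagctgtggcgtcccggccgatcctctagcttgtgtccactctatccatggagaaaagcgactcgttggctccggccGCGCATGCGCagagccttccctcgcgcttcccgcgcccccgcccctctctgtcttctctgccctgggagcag

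Positions are those of the first base of a match, counted from the start of transcription. In Sdha 3 GCGC pairs began at -98, -55 and -10, and Ndufa10 held none of the motifs. Sdhb held NRF1 letters from -54 and a GABPA core from 7. Ndufs3 held a GABPA core on each strand, and Atp5g2 NRF1 letters on both strands, from -42 and -40. Among members 25.8% held the GABPA core (17 of 66), 13.6% the NRF1 letters (9) and 13.6% the YY1 letters (9), against 9.93%, 3.05% and 3.19% of all 27025 genes in the table. The GCGC pair occurred in 24.2% of members (16) and in 7.00% of all genes. Of the members that fell 42.9% held at least 1 of the 3 motifs first searched (6 of 14), and of those that did not pass 44.2% (23 of 52). The GCGC pair was found in 5 of 14 and in 11 of 52. These shares are descriptions of letters in a window and were not tested.

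Transcripts of the respiratory chain and ATP synthase were lower at hCG-6h where they changed, and most changes were small. Of the 80 members 15 fell (18.8%, against 10.5% of all genes), 0 rose (10.8% of all genes) and 65 did not pass. Cox4i2, the alternative isoform of cytochrome oxidase subunit 4, was 6.13-fold lower, and the other 14 were between 1.28-fold and 1.72-fold lower. They belong to complex I (7 of 34), complex II (2 of 4), complex IV (2 of 17) and ATP synthase (4 of 17), with 0 of 8 in complex III. No member rose at an unadjusted p under 0.05 either, while 26 were lower at that level. With a variance that follows the level (limma's trend, robust) 32 fell and 3 rose (Atp5d, Cox5a and Ndufa1). Of all 18194 genes 2120 fell and 2158 rose in that fit. The shares of all genes given here and below include dim genes, which were 6062 of the 18194 but 2 of the 80 members. With dim genes left out, 16 of 78 members fell and 0 rose, while 1912 of all 12132 genes fell and 1916 rose. The gap in falls between members and all genes was then smaller.

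The shift was wider than the calls. A change below 0 was measured in 63 members (78.8%, against 49% of all genes), and the median log2 change was -0.165, a level 10.8% lower, beside 0.0067 for all genes. In 40 members (50.0%) all 3 hCG-6h values lay below all 3 hCG-0h values, and in 5 (6.25%) all lay above. For all genes these shares were 18.7% and 19.3%, or 37.9% in either direction. The number of calls rested on having all 6 samples: 6, 4 and 7 members fell without hCG-0h sample 1, 2 or 3, and 7, 7 and 5 without hCG-6h sample 1, 2 or 3. Of all 18194 genes 1605, 1402 and 1433, then 1484, 1444 and 1441 fell in the same fits. The members' share of falls was thus near or below that of all genes with any sample left out. Ndufa10, Ndufc2, Cox4i2 and Cox7a2l fell in each of these 6 fits. With hCG-6h sample 1 as the only sample after hCG, the one whose title and description both give 6 h, the members' median change was -0.125. Cox4i2 changed by -2.78 there. All 15 kept a change below 0 under each of the 15 other settings tried.

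**Figure D1:**
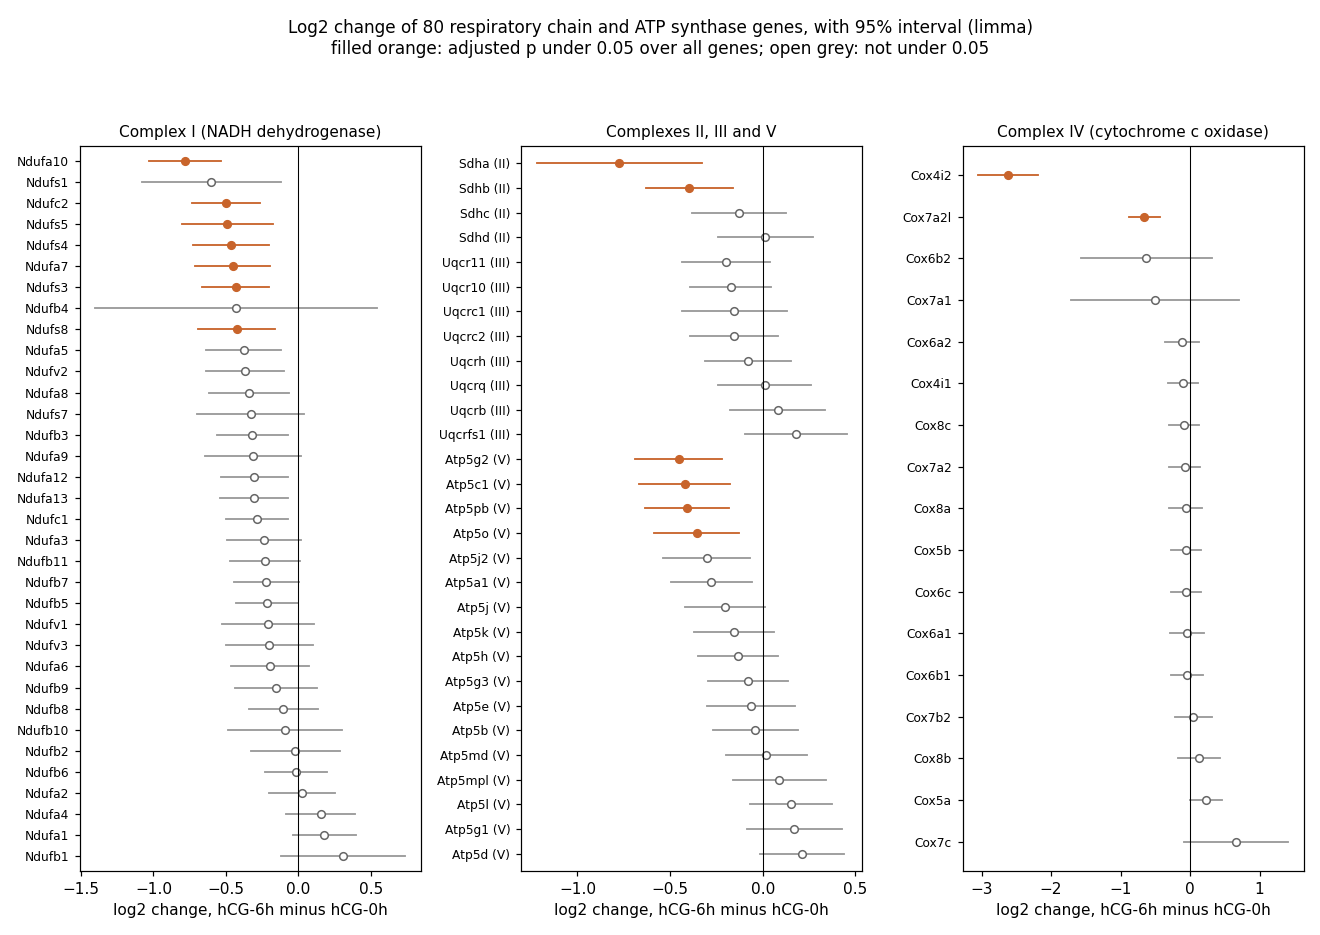
Log2 change (hCG-6h minus hCG-0h) of the 80 genes, 1 point a gene with limma's 95% confidence interval, by complex, with a wider axis for complex IV. Filled points mark the 15 genes that fell, among which Cox4i2 stands at -2.62 and the others between -0.78 and -0.36.

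The shift was then read sample by sample for each complex. Each gene's deviation from its own mean over 6 samples was taken, and the median over a complex is given here as a description. For complex I it was 0.178, 0.135 and 0.105 in hCG-0h samples 1, 2 and 3, and -0.097, -0.118 and -0.153 in hCG-6h samples 1, 2 and 3. ATP synthase gave 0.075, 0.065 and 0.075, then -0.045, -0.065 and -0.085. Complex II went from 0.064 to 0.219 at hCG-0h to -0.151 to -0.062 at hCG-6h. In these 3 complexes the groups did not overlap. Complex III came closer, with hCG-0h sample 2 at 0.002 and hCG-6h sample 1 at -0.003, and in complex IV the groups overlapped (0.003 to 0.063 and -0.120 to 0.020). Whether the complexes differ from each other was not tested.

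**Figure D2:**
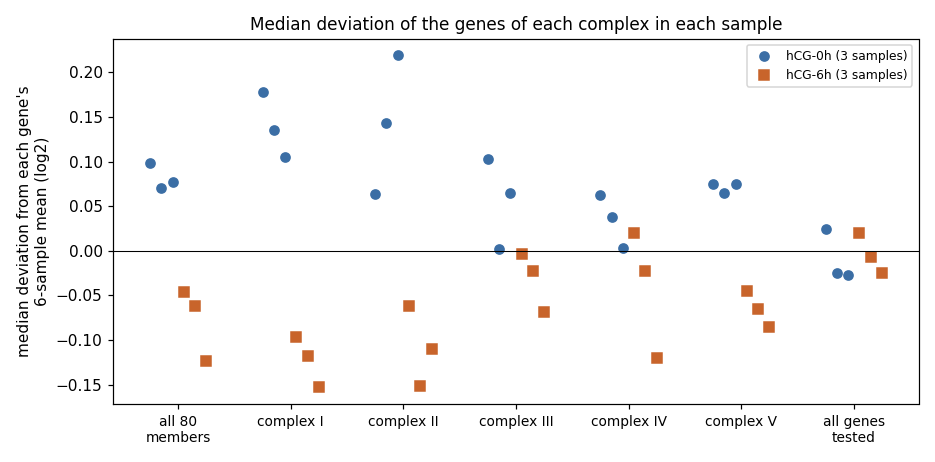
Median over the genes of each complex of the log2 deviation from the gene's own 6-sample mean, 1 point a sample (circles hCG-0h, squares hCG-6h). The groups are apart for complexes I, II, III and V and overlap for complex IV and for all 18194 genes.

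Complex I, the NADH dehydrogenase, had the widest shift, with 30 of 34 genes below 0 and a median log2 change of -0.29. Its matrix arm holds the NADH site and the iron-sulfur clusters. There 4 of 14 members fell (28.6%, against 10.5% of all genes), and the median was -0.35. In the membrane arm, which pumps protons, 3 of 19 fell (15.8%) and the median was -0.23. These arms were drawn up with the values known, and their difference was not tested. In 20 of the 34 genes (58.8%, against 18.7% of all genes) the hCG-6h values lay wholly below the hCG-0h values.

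Ndufa10, an accessory subunit of the membrane arm, showed the largest fall of the complex on the probe set used, a rank and a call that it lost with its probe sets averaged (-0.27, adjusted p = 0.0857, limma). Its log2 levels were 11.71, 11.77 and 11.70 at hCG-0h and 11.07, 10.91 and 10.85 at hCG-6h. All 3 hCG-6h samples lay below the lowest hCG-0h sample, and the level was 1.72-fold lower (log2 change -0.78 ± 0.10, SE, adjusted p = 0.00252, limma). A second probe set of Ndufa10, at a much lower level (6.48 to 7.01), had a log2 change of 0.25. It did not pass (adjusted p = 0.300 over all probe sets, limma).

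Ndufc2, another membrane arm subunit, stood at 12.49, 12.47 and 12.56 at hCG-0h and at 11.91, 12.06 and 12.05 at hCG-6h, with tight groups and no overlap. It was 1.41-fold lower (adjusted p = 0.0130), and 2 of its 4 probe sets passed on their own. Ndufs5, an accessory subunit of the same arm, read 10.99, 10.94 and 10.99, then 10.49, 10.70 and 10.26 (1.40-fold lower, adjusted p = 0.0415). The hCG-6h samples scattered more than the hCG-0h samples, and Ndufs5 was called in 1 of the 6 fits with a sample left out, that without hCG-6h sample 2 (adjusted p up to 0.107 in the others).

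In the matrix arm Ndufs3 and Ndufs8, both core subunits, fell together. Ndufs3 read 11.40, 11.35 and 11.33 at hCG-0h and 10.89, 11.02 and 10.87 at hCG-6h, 1.35-fold lower (adjusted p = 0.0213). For Ndufs8 the values were 11.79, 11.86 and 11.66 against 11.21, 11.42 and 11.40, 1.34-fold lower (adjusted p = 0.0374). Neither gene's groups overlapped. Ndufs8 was called in none of the 6 fits with a sample left out (adjusted p from 0.0541 to 0.113) and Ndufs3 in 1, without hCG-6h sample 2 (up to 0.0713 in the others). Of the 6 probe sets of Ndufs8 all were below 0 and 1 passed on its own, and their average did not pass (-0.34, adjusted p = 0.0693).

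Ndufs4 and Ndufa7 are accessory subunits near the NADH site, the former known from a severe childhood encephalopathy when mutated. Ndufs4 read 12.19, 12.08 and 11.92 at hCG-0h and 11.55, 11.65 and 11.60 at hCG-6h, 1.38-fold lower (adjusted p = 0.0259). Ndufa7 read 11.77, 11.61 and 11.51, then 11.11, 11.22 and 11.20, 1.37-fold lower (adjusted p = 0.0276). Both had hCG-0h sample 3 nearest to the hCG-6h group, and with a sample left out both were called only without hCG-0h sample 3 (adjusted p up to 0.0800 and 0.0863 in the other 5 fits). For Ndufa7 4 of 5 probe sets passed on their own and for Ndufs4 1 of 4. With probe sets averaged, among them those with values from 4.72 to 7.98, Ndufs4 lost its call (-0.44, adjusted p = 0.138).

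The other 27 complex I genes did not pass, with log2 changes from -0.60 to 0.31. Ndufs1, the largest core subunit, came to -0.60 ± 0.20 (SE) but with a wide spread, at 9.80, 9.40 and 9.43 against 8.55, 9.14 and 9.14 (adjusted p = 0.0832). Ndufa5 missed the threshold narrowly (-0.38, adjusted p = 0.0524), while its other probe set passed on its own (-0.53, adjusted p = 0.0237). Ndufv2, Ndufa8, Ndufb3, Ndufa12, Ndufa13 and Ndufc1 had changes between -0.37 and -0.28, with no overlap of the groups and adjusted p between 0.0630 and 0.0887. Ndufc1 was the tightest, at 12.83 in all 3 hCG-0h samples and 12.58, 12.55 and 12.51 at hCG-6h.

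Smaller changes of -0.33 to -0.20 were measured for Ndufs7, Ndufa9, Ndufa3, Ndufb11, Ndufb7, Ndufb5, Ndufv1 and Ndufv3, and of -0.19 to -0.02 for Ndufa6, Ndufb9, Ndufb8, Ndufb10, Ndufb2 and Ndufb6. Of Ndufv1, which carries the NADH site, 1 of 3 probe sets passed on its own (-0.43, adjusted p = 0.0480). Ndufb4 scattered too much to tell (-0.43 ± 0.41, SE, with hCG-0h sample 2 at 7.79 and the others from 6.07 to 6.55). Only Ndufa2, Ndufa4, Ndufa1 and Ndufb1 were above 0, by 0.03 to 0.31. All 3 hCG-6h values of Ndufa4 (12.02, 12.15 and 12.01) and of Ndufa1 (12.44, 12.38 and 12.44) exceeded their hCG-0h values (11.85 to 11.98 and 12.21 to 12.26), but neither passed (adjusted p = 0.349 and 0.227).

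Complex II, succinate dehydrogenase, is also an enzyme of the tricarboxylic acid cycle. Its catalytic subunits fell and its membrane anchors did not pass. Sdha, the flavoprotein that oxidises succinate, read 11.47, 11.82 and 11.67 at hCG-0h and 10.93, 10.53 and 11.18 at hCG-6h. The groups did not overlap although both were wide, and the level was 1.71-fold lower (log2 change -0.77 ± 0.19, SE, adjusted p = 0.0283). Sdhb, the iron-sulfur subunit, read 11.10, 11.08 and 11.23, then 10.79, 10.74 and 10.69, 1.32-fold lower (adjusted p = 0.0304).

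The anchors Sdhc and Sdhd had overlapping groups and changes of -0.13 and 0.01 (95% intervals -0.38 to 0.13 and -0.24 to 0.27). The call of Sdhb was lost in all 6 fits with a sample left out (adjusted p from 0.0540 to 0.0940). Sdha was called in those that lacked hCG-0h sample 1 or hCG-6h sample 3 and in no other (up to 0.0883). Another probe set of Sdha gave -0.69 and passed on its own (adjusted p = 0.00563). The average of its 4 probe sets, which takes in those with values from 3.82 to 6.17, did not pass (-0.50, adjusted p = 0.0541).

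Complex III, the cytochrome bc1 complex, showed no called change. The 8 genes lay between -0.20 (Uqcr11) and 0.18 (Uqcrfs1, the Rieske iron-sulfur protein), with a median of -0.12, and none reached an unadjusted p under 0.05. The core proteins Uqcrc1 and Uqcrc2 both came to -0.15. Uqcr10 and Uqcr11, small accessory subunits, had wholly lower values at hCG-6h (Uqcr11 at 11.51, 11.43 and 11.46 against 11.34, 11.31 and 11.16, adjusted p = 0.232), as had Uqcrc2. Uqcrh, Uqcrq and Uqcrb lay within 0.08 of 0. With the trend in the variance Uqcr10 alone of the complex was called lower.

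Complex IV, cytochrome c oxidase, held the largest change of the 80 genes, that of Cox4i2, while none of its 9 common subunits passed the test. Cox4i2 is an isoform of subunit 4 known from lung and from cells short of oxygen. Its log2 levels were 11.28, 11.39 and 11.14 at hCG-0h and 8.49, 8.43 and 9.04 at hCG-6h, with hCG-6h sample 3 the least reduced. The level was 6.13-fold lower (log2 change -2.62 ± 0.18, SE, adjusted p = 0.00018), and Cox4i2 was called under all 15 other settings (adjusted p from 2.56e-05 to 0.00702). Cox4i1, the common isoform, read 12.46, 12.55 and 12.54, then 12.45, 12.41 and 12.39, a change of -0.10 (95% interval -0.32 to 0.12, adjusted p = 0.519).

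The log2 ratio of Cox4i2 to Cox4i1 moved by -2.52 ± 0.22 (SE), from -1.25 ± 0.13 to -3.76 ± 0.36 (SD, n = 3 each), a 5.72-fold shift. Its groups did not overlap, and the exact two-sided permutation test gave p = 0.10, the smallest that 3 samples against 3 allow. The same p, also after adjustment, was found for all 5 ratios of related genes that were computed. The first gene of each ratio had fallen in these same samples, so the ratios are no independent test. The level of a ratio between probe sets has no meaning of its own, and only its difference between groups is read.

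Cox7a2l, also known as SCAF1, joins complexes III and IV in supercomplexes. It read 12.40, 12.28 and 12.37 at hCG-0h and 11.70, 11.69 and 11.68 at hCG-6h, 1.58-fold lower (log2 change -0.66 ± 0.09, SE, adjusted p = 0.0033), and all 3 of its probe sets passed on their own. The hCG-6h samples were nearly equal, and the groups did not overlap. Its relative Cox7a2, the common subunit 7a, changed by -0.08 (95% interval -0.30 to 0.14), and the ratio of Cox7a2l to Cox7a2 moved by -0.58 ± 0.03 (SE). Cox7a1, the subunit 7a isoform of heart and muscle, scattered from 5.71 to 7.79 at hCG-0h and from 5.85 to 6.71 at hCG-6h and did not pass (-0.51 ± 0.51, SE).

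Of the 9 common subunits, Cox4i1, Cox5b, Cox6a1, Cox6b1, Cox6c, Cox7a2 and Cox8a lay between -0.10 and -0.04, and Cox5a and Cox7c were higher, at 0.23 and 0.66, with none of the 9 past the threshold. For the first 7 the 95% intervals lay within -0.32 and 0.19. Cox5a was higher in all 3 hCG-6h samples (12.68, 12.73 and 12.68 against 12.57, 12.40 and 12.43), by 0.23, and did not pass (adjusted p = 0.159). Of the paired isoforms, Cox6a1 read 13.16, 13.29 and 13.28 at hCG-0h and 13.24, 13.25 and 13.10 at hCG-6h, and Cox6b1 read 13.06, 13.09 and 12.96, then 13.05, 13.02 and 12.91. Cox8a read 11.71, 11.67 and 11.61, then 11.68, 11.62 and 11.50. All 3 had overlapping groups.

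Cox7c gave 7.24, 7.59 and 7.01 against 8.15, 8.42 and 7.25 (0.66 ± 0.31, SE, adjusted p = 0.202). Another probe set of Cox7c was higher at hCG-6h and passed on its own (5.88, 4.96 and 5.96 against 6.81, 6.74 and 6.98, a change of 1.24, adjusted p = 0.0224). Cox7c was also called with its probe sets averaged (0.95, adjusted p = 0.00395) and, on the first probe set, without hCG-6h sample 3 (adjusted p = 0.0262). With a sample left out its change ran from 0.42 to 1.00. Both probe sets of Cox7c read at most 8.42, whereas the hCG-0h means of the other common subunits ran from 11.66 (Cox8a) to 13.55 (Cox5b).

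The isoforms of testis and muscle, Cox6a2, Cox6b2, Cox7b2, Cox8b and Cox8c, had changes from -0.63 to 0.13 and none passed. Cox6a2 read 8.35, 8.19 and 8.26 at hCG-0h and 8.23, 8.16 and 8.05 at hCG-6h. Cox8c read 7.18, 7.12 and 7.08, then 7.03, 7.06 and 7.02, wholly lower but by only -0.09. Cox7b2, between 3.19 and 3.47, and Cox8b, between 5.69 and 6.07, were dim in all 6 samples. Cox6b2 had wide, overlapping groups, at 8.14, 6.87 and 7.34 against 7.38, 6.21 and 6.87 (adjusted p = 0.333).

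**Figure D3:**
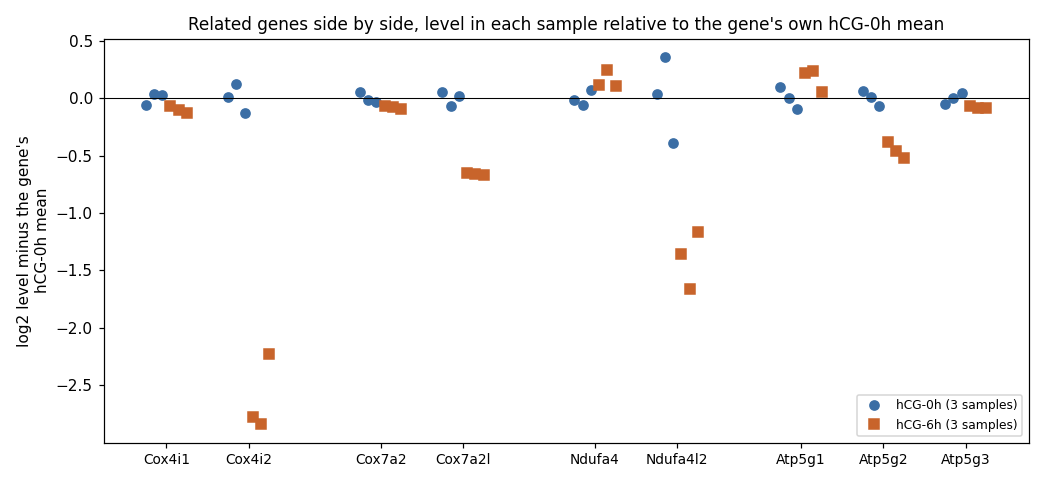
Log2 level of related genes in each sample minus the gene's own hCG-0h mean (circles hCG-0h, squares hCG-6h). Cox4i2, Cox7a2l, Ndufa4l2 and Atp5g2 are lower in all 3 hCG-6h samples, while their relatives stay closer to 0.

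Of the 17 genes of ATP synthase 4 fell (23.5%, against 10.5% of all genes), and its parts are given in turn. The peripheral stalk holds the catalytic head still. All 4 of its genes were wholly lower at hCG-6h, as were 18.7% of all genes, and 2 of the 4 fell. Atp5pb, subunit b, read 11.60, 11.56 and 11.56 at hCG-0h and 11.10, 11.25 and 11.14 at hCG-6h, 1.33-fold lower (adjusted p = 0.0247). Atp5o, the subunit that ties the stalk to the head, read 12.77, 12.70 and 12.71, then 12.45, 12.35 and 12.31, 1.28-fold lower (adjusted p = 0.0403).

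With samples left out in turn Atp5o was never called (adjusted p from 0.0655 to 0.120), and Atp5pb only without hCG-6h sample 2 (up to 0.0790 in the others). Both probe sets of Atp5pb passed on their own and neither of Atp5o. The remaining stalk genes, Atp5j and Atp5h, changed by -0.20 and -0.13.

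In the head and central stalk Atp5c1, the rotating gamma subunit, read 12.65, 12.53 and 12.53 at hCG-0h and 12.26, 12.10 and 12.09 at hCG-6h, 1.34-fold lower (adjusted p = 0.0294). It was called with a sample left out only without hCG-6h sample 1 (adjusted p up to 0.0919 in the others). The catalytic beta subunit gene Atp5b changed by -0.04 (95% interval -0.27 to 0.19) and Atp5a1, the alpha subunit, by -0.28 (13.18, 13.27 and 13.28 against 12.99, 12.94 and 12.97, adjusted p = 0.0825). Atp5e came to -0.06. Atp5d, the delta subunit of the central stalk, was higher in all 3 hCG-6h samples (12.47, 12.51 and 12.52 against 12.30, 12.21 and 12.35) by 0.21 and did not pass (adjusted p = 0.174).

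Atp5g1, Atp5g2 and Atp5g3 encode the same mature c subunit of the rotor ring behind different import peptides, and only Atp5g2 of the 3 passed the test. Atp5g2 read 12.61, 12.56 and 12.48 at hCG-0h and 12.17, 12.09 and 12.03 at hCG-6h, 1.37-fold lower (adjusted p = 0.0188). It lost its call when hCG-0h sample 2, hCG-6h sample 2 or hCG-6h sample 3 was left out (adjusted p up to 0.0652). With its 3 probe sets averaged, of which 2 were dim, the change was -0.23 and did not pass (adjusted p = 0.283). Atp5g1 read 12.14, 12.05 and 11.95, then 12.27, 12.28 and 12.10, with overlapping groups (0.17, adjusted p = 0.338), and Atp5g3 changed by -0.08 (adjusted p = 0.609). The log2 ratio of Atp5g2 to Atp5g1 moved by -0.62 ± 0.04 (SE) and that of Atp5g2 to Atp5g3 by -0.37 ± 0.07, each with an exact permutation p of 0.10.

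The other genes of the membrane part did not pass. Atp5j2 came to -0.30 (adjusted p = 0.0742) and Atp5k to -0.16, both wholly lower at hCG-6h. Atp5md, Atp5mpl and Atp5l came to 0.02, 0.09 and 0.15, and of these Atp5l was higher in all 3 hCG-6h samples.

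**Figure D4:**
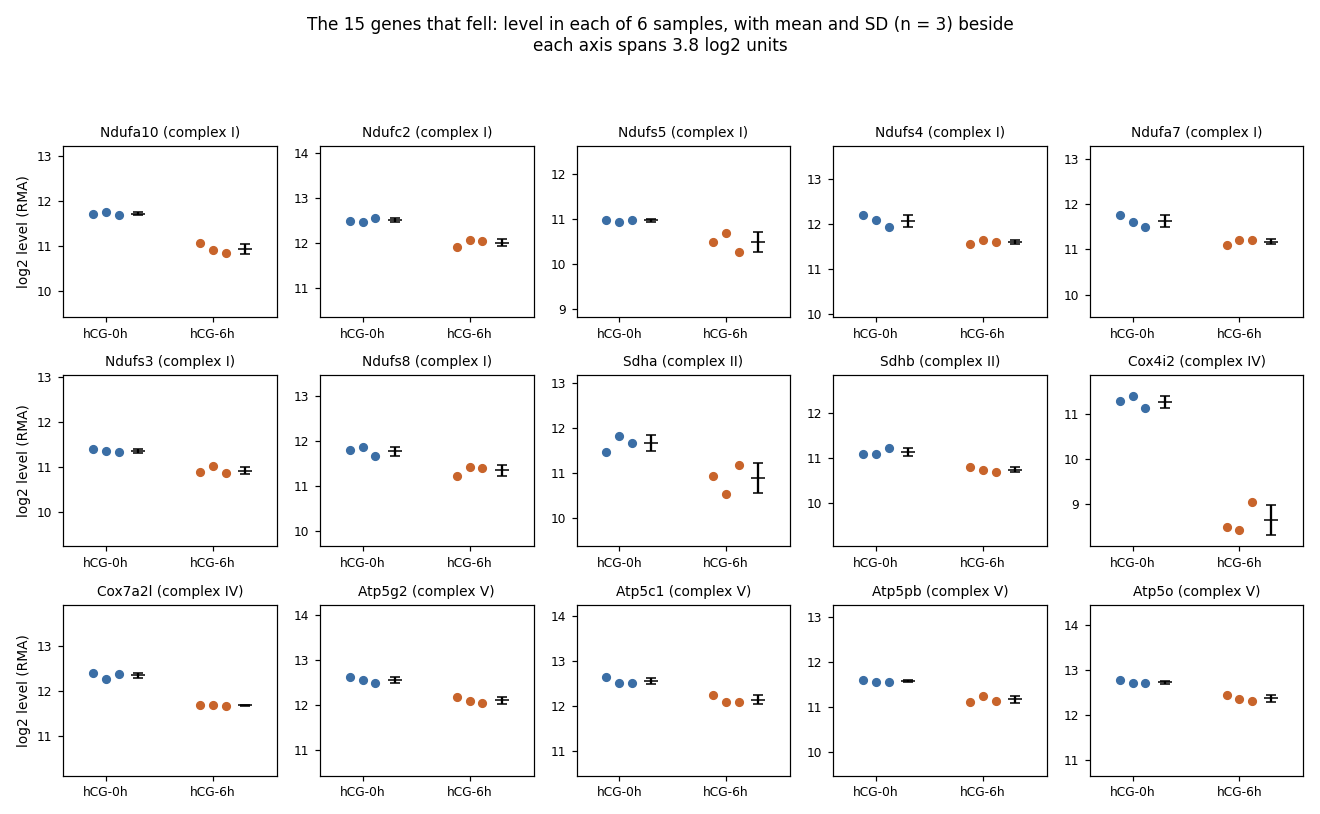
Log2 level of the 15 genes that fell in each of the 3 hCG-0h and 3 hCG-6h samples, with the mean and SD (n = 3) beside the points, each axis spanning the same width. In every panel the groups are apart, and the step of Cox4i2, from a mean of 11.27 to 8.65, is the largest of the 15.

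Genes that serve the chain were read from lists drawn up beside the members. Of 6 measured subunits, carriers and relatives that the symbols leave out 1 fell and 0 rose (16.7% and 0%, against 10.5% and 10.8%). That was Ndufa4l2, a relative of Ndufa4 known as a target of hypoxia-inducible factor, at 9.99, 10.31 and 9.56 against 8.60, 8.29 and 8.79 (2.63-fold lower, adjusted p = 0.00532). The electron carrier gene Cycs and the cytochrome c1 gene Cyc1 changed by 0.22 and -0.05 and did not pass.

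Of 45 assembly factors 7 fell and 7 rose (15.6% each, against 10.5% and 10.8% of all genes), with a median of -0.06. The largest falls were those of Nubpl, which delivers iron-sulfur clusters to complex I, at 10.26, 10.04 and 10.07 against 9.25, 8.24 and 7.98 (3.10-fold lower, adjusted p = 0.0121), and of Bcs1l, which inserts the Rieske protein into complex III (2.03-fold lower, adjusted p = 0.0464). Ttc19, of complex III, was 1.91-fold lower (adjusted p = 0.00804), and Cox20, a chaperone of complex IV, 1.91-fold lower (10.51, 10.61 and 10.62 against 9.71, 9.69 and 9.54, adjusted p = 0.00109). With 1 sample left out, Bcs1l was called only in the fits that lacked hCG-0h sample 2 or hCG-6h sample 1 (adjusted p up to 0.135 in the rest). The others of these 4 were called in all 6 such fits.

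The 7 factors that rose are named here because of their values: Sdhaf1, Cox19, Sdhaf3, Ndufaf4, Coa5, Sco2 and Cox17, by 0.44 to 0.86 on the log2 scale. Cox17, Cox19 and Sco2 handle copper for complex IV, and Sdhaf1 and Sdhaf3 serve complex II. Ndufaf4 alone of these 7 was called with each sample left out, and Cox19 lost its call only without hCG-0h sample 3 (adjusted p = 0.0539). The other 5 were called in 1 to 3 of the 6 fits (adjusted p up to 0.0924). With probe sets averaged, Sdhaf3 and Cox17 did not pass (0.14 and 0.17).

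Of 22 genes of pyruvate dehydrogenase and the tricarboxylic acid cycle 6 fell and 0 rose (27.3% and 0%, against 10.5% and 10.8% of all genes), with a median of -0.16. At an unadjusted p under 0.05, 8 were lower and 0 higher. The 6 that fell were Pdk4, Pdk1, Suclg2, Idh2, Fh1 and Pcx. No gene of the pyruvate dehydrogenase complex itself passed: Pdhb changed by -0.20, Dlat by -0.11, Dld by 0.16, Pdha1 by 0.25 and Pdhx by 0.38. Pdk4, a kinase that shuts pyruvate dehydrogenase, was 6.35-fold lower (10.37, 10.25 and 10.73 against 8.00, 7.64 and 7.71, adjusted p = 0.000117), and Pdk1, of the same family, 2.32-fold lower (adjusted p = 0.00776). Suclg2 and Idh2, enzymes of the mitochondrial matrix, were 1.88-fold and 1.65-fold lower (adjusted p = 0.0342 and 0.0398). With 1 sample left out, Suclg2 was called only where hCG-0h sample 1 or hCG-6h sample 3 was missing (adjusted p up to 0.105 otherwise). Idh2 was called only where hCG-0h sample 2 or hCG-6h sample 1 was missing (up to 0.115 otherwise), and not with its probe sets averaged (-0.16, adjusted p = 0.473).

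Among 23 regulators of mitochondrial biogenesis and mitochondrial DNA 2 fell and 1 rose (8.7% and 4.35%, against 10.5% and 10.8%). Esrrg, an orphan nuclear receptor, read 6.32, 5.97 and 5.65 against 4.69, 4.83 and 4.99 (adjusted p = 0.00595) and was dim in both groups. Pprc1, a coactivator of the PGC-1 family, was 1.64-fold lower (adjusted p = 0.0115). Polg2, the accessory subunit of the mitochondrial DNA polymerase, was 1.45-fold higher (adjusted p = 0.0179), a call that held with a sample left out only without hCG-0h sample 1 (up to 0.0587 in the others). The genes of the factors named for the promoter motifs did not pass: Nrf1 changed by 0.25, Gabpa by -0.10 and Yy1 by -0.08.

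Of 18 carriers and channels 1 fell and 2 rose (5.56% and 11.1%), and of 22 genes of import and folding 0 fell and 1 rose (0% and 4.55%), shares near or below those of all genes (10.5% and 10.8%). In import and folding 3 genes were lower and 2 higher at an unadjusted p under 0.05 (limma). Slc25a13, the carrier that exchanges aspartate for glutamate, was 2.22-fold lower (adjusted p = 0.00182). Slc25a10, a dicarboxylate carrier, and Slc25a5, which exchanges ADP for ATP, were 1.49-fold and 1.39-fold higher (adjusted p = 0.0293 and 0.0115). Timm17a, a subunit of the inner membrane translocase, was 1.27-fold higher (adjusted p = 0.0389). The call of Timm17a was lost with each sample left out (adjusted p from 0.0699 to 0.108), and that of Slc25a10 in all but the fits that lacked hCG-0h sample 3 or hCG-6h sample 3 (up to 0.0773).

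**Figure D5:**
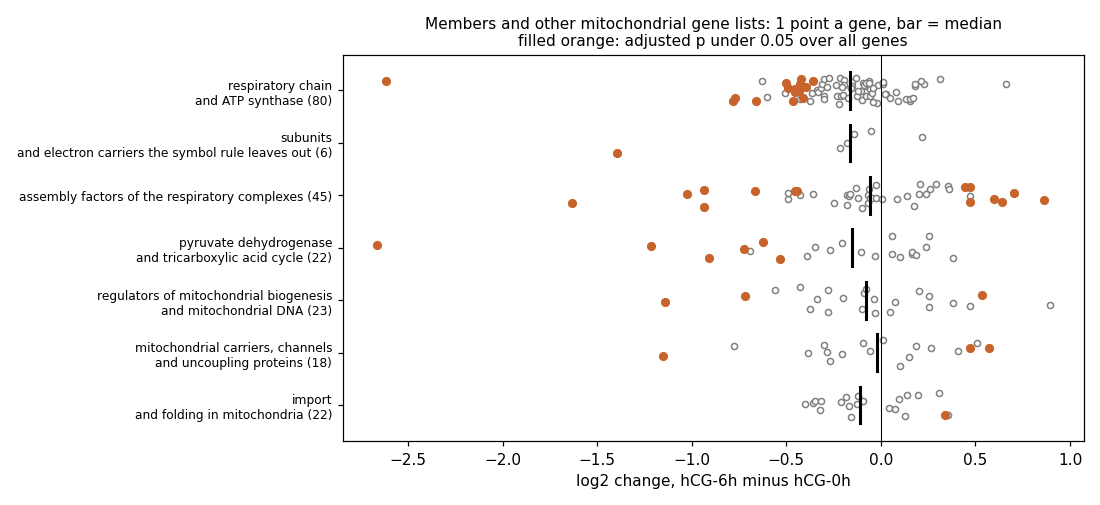
Log2 change (hCG-6h minus hCG-0h) of the 80 members and of 6 other lists of mitochondrial genes, 1 point a gene with the list's median as a bar and called genes filled. The members' called genes all lie below 0, whereas 7 assembly factors lie on each side.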

How the data were processed

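RNA of 6 samples labelled as cumulus cells was amplified (NuGEN Ovation Pico WTA, per the labels' protocols) and measured on 1-colour Affymetrix arrays. The deposited values are log2 signals made by the authors with RMA, with GCOS and Affymetrix Expression Console 1.1 named, per the submitters' processing notes. RMA corrects background and equalises the arrays, so a shift shared by all genes is removed. The genome build was not given in the sources used here. Their number, 3 arrays a group, limits the precision (median SE 0.101 for members, 0.146 for all genes).

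Of 45101 probe sets 34958 had 1 gene symbol, 932 several and 9211 were not listed in the annotation. For each of 18194 genes the probe set with the highest mean over all samples was used, and 163 probe sets with 1 symbol fitted the symbols of the 80 members. Groups were compared with limma 3.58.1 (R 4.3.3; lmFit and eBayes, group as the only term), two-sided, with Benjamini-Hochberg adjustment over all genes at 0.05. "Fell" and "rose" are used for genes past that threshold, and "no overlap" for all 3 values of a group on one side of the other group's. The fit was tested on simulated data with far fewer changed genes than here. Of 50 genes each, 4 were recovered at a log2 change of 0.5, 28 at 1, 44 at 2 and 49 at 4. Small changes such as those of most members could thus often be missed. Ratios of related genes were compared with an exact permutation test.

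Named with their values were all members past the threshold, the largest change not past it in each complex, isoform pairs, and the largest called changes of each other list (at most 4). Others were named after their values were seen. Members and lists were chosen with earlier results of these data known. Alternatives were a block for the sample number, a variance trend, other normalizations, array weights, dim genes left out (mean under 6.08), other uses of probe sets, hCG-6h sample 1 alone, and each sample left out.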

Additional observations from a re-analysis of the deposited data

How the results depend on the processing

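The members' median change stayed below 0 in all 15 alternatives (-0.1967 centred on array medians, -0.125 with hCG-6h sample 1 alone, where the lone sample is assumed to vary like the other group). The number of members that fell was 1 with hCG-6h sample 1 alone, when 1577 genes differed in all, 32 with the variance trend, and 4 to 7 with a sample left out. Members that rose numbered 3 with the trend, 1 (Cox7c) with the mean of probe sets or with all probe sets on their own, and 0 to 1 with a sample left out (Cox7c without hCG-6h sample 3). Cox4i2 was called in all 15 alternatives, and no named gene past the threshold changed sign in any of those that measured it. The sample number as a block left 6 members falling, 5 of them among the 15, and 1594 of all genes. Cox6b2 was the other member (adjusted p = 0.0287, limma). Samples with the same number did not deviate together over all genes (r = 0.011, -0.016 and 0.029), and not every sample correlated best with its own number. A link between them that touches few genes would not show in such a correlation. With probe sets averaged 12 members fell, 10 of them among the 15, and 2046 of all genes. Ndufa10, Ndufs4, Ndufs8, Sdha and Atp5g2 lost their calls. Centring moved the genes called to 1820 higher and 2050 lower. Where a call was lost, the cause was not tested. Signals near the array's floor, as for Cox7b2, limit what can be seen.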

Other observations

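Probe sets listed under several gene symbols were left out of the counts above. A pair of probe sets shared by Ndufb4 and its copies Ndufb4b and Ndufb4c read lower at hCG-6h, by -0.42 (adjusted p = 0.102 over all probe sets, limma) and -0.56 (11.69, 11.52 and 11.56 against 11.21, 11.08 and 10.80, adjusted p = 0.0407). Ndufb4's own probe set was much noisier, as described above. The probe set shared by Ndufs5 and its pseudogene gave -0.43 (adjusted p = 0.0616), near the value of the Ndufs5 probe set. That shared by Ndufs6 and Ndufs6b gave -0.38 (adjusted p = 0.0520). Those of Ndufa11 and Ndufa11b gave -0.23 and -0.02 and did not pass. These probe sets cannot tell the copies apart. Of Ndufa13 and Ndufb2, 3 probe sets shared with another gene had changes from 0.07 to 0.39 and did not pass.

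Of the 11 members that fell and had several probe sets, 10 had all probe sets below 0 and 2 (Cox7a2l and Atp5pb) had all of them past the threshold over all probe sets. For Atp5o neither passed there (adjusted p = 0.0557 and 0.0603). No member that fell had a probe set called in the other direction. Probe sets of opposite sign, apart from Ndufa10, were found for Ndufa3, Ndufa12, Ndufb6, Ndufb8, Ndufb9, Sdhd, Uqcr10, Uqcrq, Cox5b and Cox6b1, none of which was called.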
